A study of Mus musculus with 2 samples.

Results

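Among mouse embryoid-body cells treated with DMSO, a minority carried transcripts of Ly6a, Crxos, Aspa and Spic. These cells were chosen from the readout itself: a cell was taken when it held at least 2 unique molecular identifiers (UMIs, 1 per captured RNA molecule) summed over the 4 genes. Of 17878 DMSO cells with 500 or more genes and no more than 10% mitochondrial UMIs, 1041 met this rule, which is 5.82% (95% exact binomial interval 5.48 to 6.18%). Another 2347 cells held exactly 1 such UMI, and the 14490 cells with 0 such UMIs are the comparison. Across both libraries of the series 29466 cells passed the filters.

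The embryoid bodies were grown from embryonic stem cells of the male mouse line J1. They received either dTAG13, a small molecule that sends a protein fused to an FKBP12 tag to the proteasome, or DMSO, its solvent, for 2 days. They were then taken apart with trypsin and sequenced by 10x Genomics 3′ single-cell RNA-seq, with 1 library for each treatment. The series title names Tex10, but no label states that Tex10 is the tagged protein. With 1 library per treatment no p-value or standard error was computed, and all intervals cover counting error only.

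Ly6a encodes Sca-1, a surface protein held by a lipid anchor and used to sort blood stem cells. Crxos is a homeobox gene next to Crx that is transcribed in the early embryo, and Spic is an ETS-family transcription factor best known from red pulp macrophages. Aspa encodes aspartoacylase, which splits N-acetylaspartate and is best known from oligodendrocytes. Mouse embryonic stem cells move between a naive state, marked by genes such as Dppa3, Klf4 and Tbx3, and a formative state that follows it and precedes the germ layers. Embryoid bodies are aggregates in which cells leave the naive state.

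The 4 genes lie on 4 chromosomes and overlap no other gene in the GENCODE M21 annotation of mm10. Ly6a is at chr15:74994877-74998031 on the minus strand, Spic at chr10:88674772-88685015 on the minus strand, Aspa at chr11:73304992-73329596 on the minus strand, and Crxos at chr7:15882617-15904020 on the plus strand. In all kept DMSO cells together, Ly6a had 1973 UMIs, Crxos 1581, Spic 1375 and Aspa 496. A UMI was seen in 6.50% of kept cells for Ly6a, 7.10% for Crxos, 6.78% for Spic and 2.59% for Aspa.

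Among the 1041 chosen cells, Ly6a gave 45.8% of the UMIs of the 4 genes, Crxos 26.9%, Spic 19.4% and Aspa 7.93%. Ly6a was seen in 598 of these cells, Crxos in 516, Spic in 436 and Aspa in 211. In 424 cells all UMIs came from 1 of the genes, in 522 cells from 2, in 87 cells from 3, and 8 cells held all 4. Just inside the threshold were 606 cells with 2 UMIs, and just outside it the 2347 cells with 1. A further 212 cells held 3 UMIs, 99 held 4, and the highest count in a cell was 27. Most chosen cells were thus near the threshold, so the group is a range of low counts and not a separate peak.

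**Figure D1:**
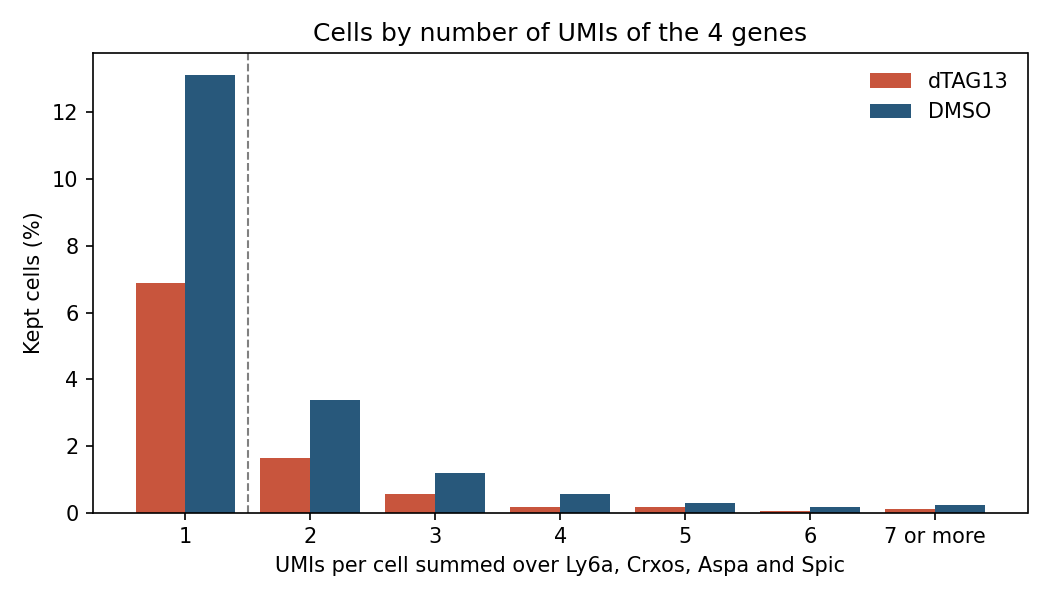
Share of kept cells (%) by the number of UMIs per cell summed over Ly6a, Crxos, Aspa and Spic, for the dTAG13 library (red) and the DMSO library (blue). Cells to the right of the dashed line met the rule; cells with 0 UMIs are not drawn, and the bars fall with each added UMI up to 6 in the DMSO library.

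The chosen cells were deeper than the cells with 0 UMIs: the median was 7415 against 5885 UMIs per cell, and 2263 against 1937.5 genes per cell. The mitochondrial share was 2.52% in the chosen cells and 2.47% in the others. Thinned to 3900 UMIs per cell, the gene counts were 1505.5 and 1494. Of the chosen cells 165 (15.9%) lay above the 95th percentile of UMIs of the library, against 550 (3.80%) of the cells with 0 UMIs. Doublets were not called and both groups may hold some, and their part in the results below was not tested. The libraries shared 63 kept barcodes, of which 5 were chosen DMSO cells and 0 were chosen in both libraries.

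The rule does not force the 4 genes to occur together, since 2 UMIs of 1 gene were enough. Each gene was therefore read in cells chosen by at least 2 UMIs of the other 3, and compared with cells with 0 UMIs of those 3. Levels are given as UMIs per 1000000 UMIs (CPM) over the pooled cells. Ly6a had 73.0 CPM in the 583 cells chosen without it and 11.8 CPM in 15261 cells with none, a ratio of 6.17 (95% interval 5.46 to 6.96). Crxos had 44.2 and 10.4 CPM, a ratio of 4.25 (3.70 to 4.88). Aspa had 13.6 and 2.92 CPM, a ratio of 4.64 (3.66 to 5.84). Spic had 30.2 and 9.75 CPM, a ratio of 3.09 (2.63 to 3.62). All 4 genes were thus higher in cells picked by the others, and each interval lay above 1. The 4 genes were set as a group with earlier results of these data known, so this is a description and no independent check.

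In the dTAG13 library the same reading gave ratios of 8.81 for Ly6a (6.93 to 11.1), 11.8 for Crxos (8.12 to 16.8), 8.44 for Aspa (5.25 to 13.2) and 4.15 for Spic (2.96 to 5.67). Cells that met the rule were less frequent there: 316 of 11588 kept dTAG13 cells, or 2.73% (2.44 to 3.04%), against 5.82% in DMSO. Thinned to 3900 UMIs per cell, the shares were 1.13% (0.938 to 1.35%) in dTAG13 and 2.77% (2.52 to 3.03%) in DMSO. Over all kept cells Crxos had 2.13 CPM in dTAG13 and 13.5 CPM in DMSO, and Ly6a had 8.07 and 16.8 CPM. With 1 library of each, treatment and library cannot be told apart.

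**Figure D2:**
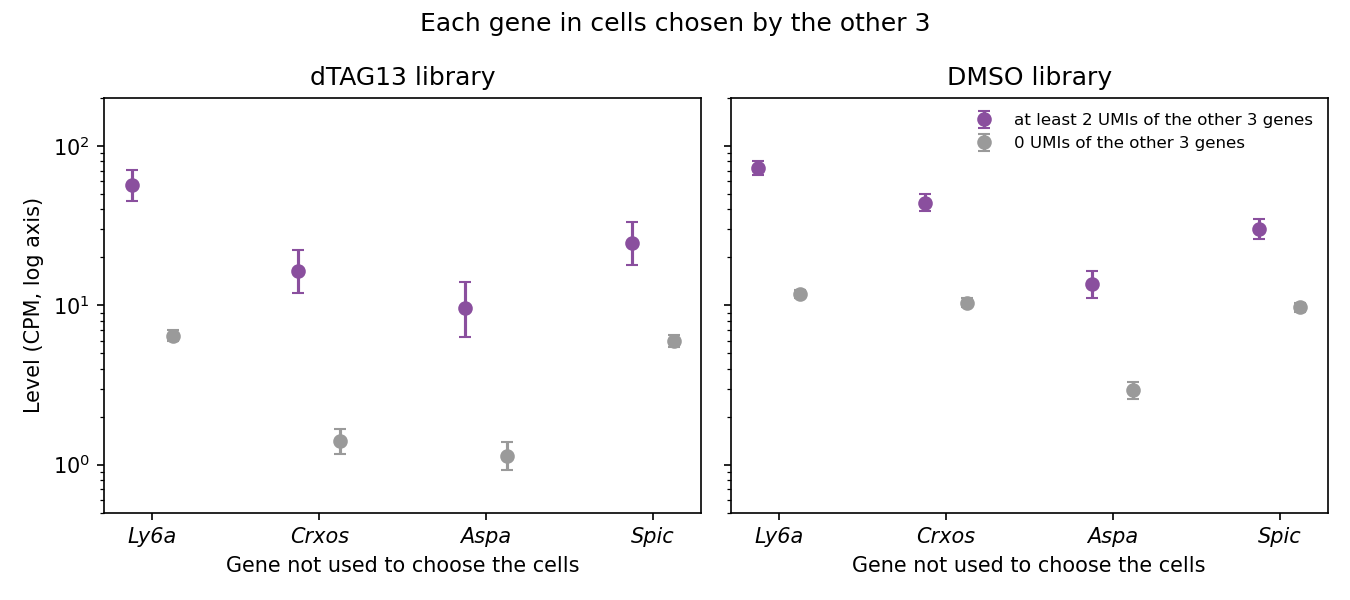
Level (CPM, log axis) of each of the 4 genes in cells with at least 2 UMIs of the other 3 (purple) and in cells with 0 UMIs of the other 3 (grey), in the dTAG13 library (left) and the DMSO library (right), with 95% Poisson intervals. In both libraries each purple point lies above its grey one, by 6.17-fold for Ly6a in DMSO.

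Which other genes went with the 4 was read from pooled counts, without the 4 genes. Of 6614 genes that reached 10 CPM in either group of DMSO cells, 180 were at least 1.5-fold higher in the chosen cells (2.72%) and 102 at least 1.5-fold lower (1.54%). The 15 genes with the highest ratios and the 15 with the lowest are described next, among genes with at least 20 CPM. They are grouped by what each gene is known to do, a grouping made after ranking, with no test of a theme.

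Ak4, an adenylate kinase of mitochondria, had 27.5 CPM in the chosen cells and 7.15 CPM in cells with 0 UMIs, a ratio of 3.85 (3.30 to 4.47). Fbp2, the muscle form of fructose-1,6-bisphosphatase, had 49.4 and 14.4 CPM, a ratio of 3.43 (3.07 to 3.83). Slc25a20, which carries acylcarnitines into mitochondria, had 42.7 and 19.2 CPM, a ratio of 2.22 (1.98 to 2.49). These 3 genes of metabolism, picked for their ratios, were 2.22- to 3.85-fold higher in the chosen cells.

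Both autophagy genes of this group were abundant. Calcoco2 encodes NDP52, in human cells a receptor that brings bacteria and damaged mitochondria to autophagosomes, and had 789 CPM in the chosen cells and 277 CPM in the others, a ratio of 2.85 (2.77 to 2.92). Gabarapl2, a member of the ATG8 family that is attached to autophagosome membranes, had 930 and 421 CPM, a ratio of 2.21 (2.16 to 2.26). This led to a panel of 28 autophagy genes, drawn up after these values were seen, of which 21 were measured. Of these, 4 were at least 1.5-fold higher in the chosen cells and 0 were lower, against 2.72% and 1.54% over all measured genes. The median log2 ratio was 0.16, against 0.02 over all measured genes. The pair that led to the panel is among the 4 and enters the median, so both values are a description. The other higher genes were Atg4b, a protease that trims ATG8 proteins, with a ratio of 1.83, and Atg13, with 1.65. Atg13 is part of the kinase complex that starts autophagy. Map1lc3b, another ATG8 protein, had 506 and 353 CPM, a ratio of 1.44. Ulk1, a kinase that starts autophagy, had a ratio of 1.40, the receptor Sqstm1 had 1.15, and Gabarap and Map1lc3a had 1.04 and 0.985. The receptor Optn, under 10 CPM, was lower, with 1.74 CPM in the chosen cells and 4.64 CPM in the others, a ratio of 0.376 (0.208 to 0.626).

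Dppa3, which encodes the maternal factor Stella and marks naive cells, had 114 CPM in the chosen cells and 45.2 CPM in the others, a ratio of 2.53 (2.36 to 2.72). Khdc3, a subunit of the maternal complex under the egg membrane, had 55.0 and 24.2 CPM, a ratio of 2.27 (2.05 to 2.51). Rhox6 and Rhox9, homeobox genes of an X-linked cluster, had ratios of 2.39 and 2.37, and Rhox5 of the same cluster had 2.16. Rhox6 and Rhox9 are near-identical copies, as is Fthl17a (ratio 3.39) among the X-linked ferritin-like genes, so reads may be split or shared between copies. The others of the 15 were Hip1 (2.53), Zc3hav1, the zinc-finger antiviral protein (2.52), S100a13 (2.38), Pdlim4 (2.25) and Rnf213 (2.17).

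**Figure D3:**
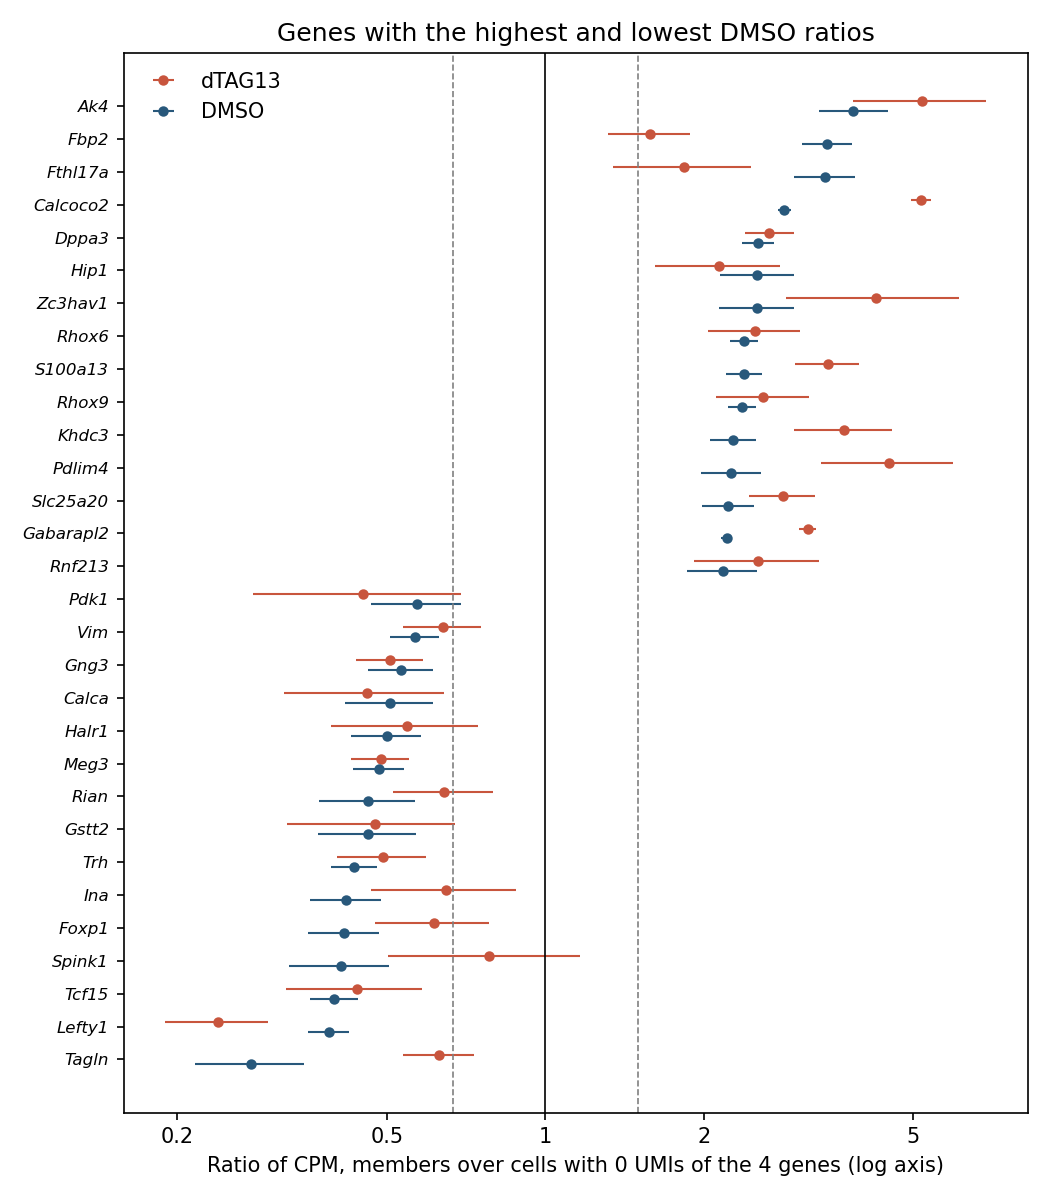
Ratio of the level in chosen cells (members) to that in cells with 0 UMIs of the 4 genes (log axis) for the 15 genes with the highest and the 15 with the lowest ratios in DMSO, in the dTAG13 library (red) and the DMSO library (blue), with 95% counting intervals and dashed lines at 1.5-fold. The DMSO ratios run between 0.276 for Tagln and 3.85 for Ak4, and all 30 points lie on the same side of 1 in both libraries, with the dTAG13 interval of Spink1 reaching across 1.

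The 15 lowest genes included Lefty1, a Nodal antagonist, with 59.9 CPM in the chosen cells and 155 CPM in the others, a ratio of 0.388 (0.354 to 0.423). Tcf15, a helix-loop-helix factor that marks cells leaving the naive state, had 42.2 and 106 CPM, a ratio of 0.398. Meg3 and Rian, maternally expressed noncoding RNAs of 1 imprinted domain, had ratios of 0.483 and 0.461. Tagln, an actin-binding protein of smooth muscle and fibroblasts, was lowest with 8.59 and 31.1 CPM, a ratio of 0.276 (0.216 to 0.347). Trh, the precursor of thyrotropin-releasing hormone, had 46.7 and 108 CPM, a ratio of 0.433. Vim, an intermediate filament protein, had 41.0 and 72.5 CPM, a ratio of 0.565. The others were Spink1 (0.409), Foxp1 (0.415), Ina (0.418), Gstt2 (0.460), Halr1, Calca (0.507), Gng3 (0.532) and Pdk1 (0.570), a kinase that holds back pyruvate use in mitochondria.

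The general pluripotency factors Pou5f1 and Sox2 were close to level. Pou5f1 had 618 CPM in the chosen cells and 609 CPM in the others, a ratio of 1.02. Sox2 had 298 and 288 CPM, a ratio of 1.03, and Nanog, which is uneven among embryonic stem cells, had 110 and 80.9 CPM, a ratio of 1.36. Tex10 had 79.7 and 81.5 CPM, a ratio of 0.978.

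The list counts that follow stand against 2.72% of all 6614 measured genes at least 1.5-fold higher, 1.54% at least 1.5-fold lower, and a median log2 ratio of 0.02. In a short list a single gene past the limit says little about its list. Of 18 measured naive genes, 3 were higher and 1 lower, with a median log2 ratio of 0.17. Besides Dppa3, these were Tbx3, a T-box factor, with 126 and 73.6 CPM (ratio 1.72), and Tet2, which oxidises methylcytosine, with 95.6 and 62.9 CPM (ratio 1.52). Klf4 had 51.2 and 34.1 CPM, just under the 1.5-fold limit. Nr0b1 was the lower one, with a ratio of 0.662, and Zfp42 and Esrrb had 1.05 and 1.07. Members of the naive list thus differed from each other: 3 were higher, 1 was lower and the others lay within 1.5-fold. Of 9 measured shared pluripotency genes 0 passed in either direction, with a median log2 ratio of -0.19, and Utf1 had a ratio of 0.704.

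The formative, Nodal and imprinted lists had medians below 0, as had the BMP list among genes with at least 10 CPM. Of 5 measured formative genes, 2 were at least 1.5-fold lower and 0 higher, with a median log2 ratio of -0.52. Sox4 joined Tcf15 with a ratio of 0.654, and Dnmt3b, which sets new DNA methylation, had 0.714. Of 9 measured Nodal targets, 3 were lower and 0 higher: Fgf17 (0.298), Lefty1 and Skil (0.621), and Lefty2 had 0.723. Of 5 measured BMP targets, Bmp4 (0.421) and Id1 (0.600) were lower, and of 9 measured imprinted genes Rian, Meg3 and Cdkn1c (0.572) were lower, with 0 higher in either list. The median log2 ratios of the Nodal, BMP and imprinted lists were -0.27, -0.44 and -0.56. The BMP median was 0.14 with genes down to 1 CPM included, and 0.20 in dTAG13. Of 2 measured Wnt targets both were lower, Ccnd1 with 0.571 and Tcf7 with 0.645.

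Other lists gave few or no genes past 1.5-fold, and at 2.72% higher and 1.54% lower over all measured genes, counts of 0 in lists of this size are near the background. Of 50 measured G2 and M genes and 17 measured p53 targets, 0 passed in either direction, with median log2 ratios of 0.13 and -0.09. Of 42 measured S-phase genes, 1 was higher and 2 were lower. Of 17 measured glycolysis genes, Pdk1 and Ldha (0.665) were lower and 0 were higher. Of 13 measured lysosome genes, Psap was higher with 1.80 and 0 were lower. Of 6 measured interferon response genes 0 passed, and Isg15, Ifit1, Ifit3, Irf7 and Usp18 had 0 UMIs in the chosen cells. Ly6a and Zc3hav1 are themselves known as interferon-induced genes.

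Of the lists for other cell types and lineages, 3 of 6 measured trophoblast genes were higher and 0 lower: Rhox6, Rhox9 and Gata2, a zinc-finger factor with 16.9 and 7.55 CPM (ratio 2.24). The keratin Krt18 of that list had a ratio of 0.813. Of 4 measured extraembryonic endoderm genes, Sparc, a matrix protein, was higher with 234 and 148 CPM (ratio 1.58). Nes (2.08) was the higher one of 2 measured neural genes, Stk31 (1.70) of 5 measured germ cell genes and Kit (1.64) of 2 measured macrophage and blood genes. Asns, which makes asparagine, was the 1 higher gene of 8 measured in the integrated stress response, with 97.1 and 60.3 CPM (ratio 1.61). Of 12 unfolded protein response, 13 cholesterol synthesis, 10 heat shock, 7 immediate-early and 7 epithelial genes measured, 0 passed in either direction, and neither did any of 7 genes of the Tex10 complex and the rixosome.

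Because 3 of the 4 genes are best known from other tissues, markers of those tissues were read. In the chosen cells 8 of 18 macrophage and blood markers had 0 UMIs, among them Ptprc, Csf1r, Adgre1 and Lyz2. For scale, 3 UMIs in the chosen cells would be 0.348 CPM. The summed level of that list was 58.6 CPM in the chosen cells and 68.7 CPM in the others. Of 8 oligodendrocyte markers, Mog, Sox10, Olig1 and Olig2 had 0 UMIs, with sums of 9.75 and 7.69 CPM. Of 9 endothelial markers, Tie1 and Emcn had 0 UMIs, with sums of 53.5 and 40.1 CPM. The remaining 10 macrophage and blood markers and 4 oligodendrocyte markers had UMIs, among them Kit, with the ratio given above, and Mbp, a myelin protein, with 3.02 CPM in the chosen cells and 1.65 CPM in the others. The part of such cells in the results was not tested, and the chosen cells are called here by their 4 genes.

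Several genes with the largest ratios lay under 10 CPM and outside the counts above. A rule added after values were seen took genes below that limit with at least 20 UMIs in the chosen cells and named the 10 highest of 3030. These genes passed only through the group where they are high, and no lower gene could be named, so their ratios are a description and no count over them is support. Bhmt, which makes methionine from homocysteine and betaine, had 73 UMIs in the chosen cells and 49 UMIs in the much larger group with 0. That is 8.47 against 0.533 CPM, a ratio of 15.9 (10.9 to 23.3). A Bhmt UMI was seen in 4.71% of the chosen cells and 0.324% of the others, at median depths of 7415 and 5885 UMIs.

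Its neighbours on chromosome 13 went with it. Bhmt is at chr13:93616675-93637961 on the minus strand, Bhmt2 at chr13:93655720-93674302 on the minus strand, and Dmgdh, the next enzyme of betaine breakdown, at chr13:93674433-93752833 on the plus strand. Bhmt2 had 2.44 CPM in the chosen cells and 0.337 CPM in the others, a ratio of 7.22 (3.95 to 13.0). Dmgdh had 2.55 and 0.403 CPM, a ratio of 6.34 (3.56 to 11.04). Bhmt overlaps 1 gene and Dmgdh 2 genes on the opposite strand, and no source used here states whether the counting used strand. The 13 genes of choline and one-carbon metabolism that reached 10 CPM had a median log2 ratio of -0.03. Of these, 0 were past 1.5-fold in either direction, near the 2.72% higher and 1.54% lower over all measured genes. Bhmt, Bhmt2 and Dmgdh were instead taken from under 10 CPM for high ratios, so the 13 genes are no like comparison for them.

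Bhmt levels differed with the number of UMIs of the 4 genes: 0.533 CPM at 0 UMIs, 2.58 at 1, 3.93 at 2, 10.2 at 3 and 17.9 at 4 or more. Bhmt was also read in cells that held UMIs of only 1 of the 4 genes. It was 7.14-fold (4.19 to 11.9) higher in the 863 cells with Spic alone than in cells with 0 UMIs, 6.73-fold (3.87 to 11.3) higher in the 875 cells with Crxos alone, and 2.98-fold (1.29 to 6.13) higher in the 771 cells with Ly6a alone. The 262 cells with Aspa alone held 1 Bhmt UMI, which gives 1.01 (0.0251 to 5.90). Cells with 1 gene alone include the chosen cells whose UMIs all came from that gene. Bhmt was picked for its ratio in the chosen cells, so both readings in part restate that choice.

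The other genes of this kind were Trim43a, Med12l, Sycn, AA467197, Adtrp, Parm1 and Pramel6. Trim43a, known from the preimplantation embryo, had 34 UMIs in the chosen cells and 18 in the others, a ratio of 20.1 (11.1 to 37.9). Of its 34 UMIs, 10 came from the 11 chosen cells of 1 small cluster described below, and reads may be shared with near-identical Trim43 copies. Pramel6, a gene of naive cells, had a ratio of 5.09 (2.87 to 8.75). AA467197 had 8.78 (6.05 to 12.7) and Parm1 5.18 (3.82 to 6.97).

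Promoters of the genes these results turn on were read from RefSeq (GRCm38.p6), from 250 bases before each start to 50 bases after it. Capitals mark matches on either strand to 5 short motifs: the ETS core GGAAGT, the nuclear receptor core site AGGTCA, the OTX and CRX site TAATCC, the STAT site TTCNNNGAA and the E-box CACGTG. Spic, Crxos and Aspa are genes of the rule, Gabarapl2 and Fbp2 stand for the 15 highest, and Bhmt had the largest ratio of the metabolic genes. For Crxos the third of 3 listed windows is shown, the 1 with a match.
Spic chr10:88682974-88683273, minus strand: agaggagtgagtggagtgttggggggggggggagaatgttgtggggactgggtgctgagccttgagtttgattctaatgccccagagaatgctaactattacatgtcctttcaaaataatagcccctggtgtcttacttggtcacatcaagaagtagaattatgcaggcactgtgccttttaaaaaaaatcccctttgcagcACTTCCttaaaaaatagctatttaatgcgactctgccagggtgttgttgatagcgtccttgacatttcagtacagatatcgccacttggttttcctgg
Crxos chr7:15901396-15901695, plus strand: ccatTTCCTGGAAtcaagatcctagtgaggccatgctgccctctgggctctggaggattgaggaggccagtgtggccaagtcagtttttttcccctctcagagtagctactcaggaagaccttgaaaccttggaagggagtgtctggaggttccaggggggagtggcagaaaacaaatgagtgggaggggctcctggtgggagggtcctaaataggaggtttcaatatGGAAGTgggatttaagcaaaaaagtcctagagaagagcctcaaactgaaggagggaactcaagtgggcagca
Aspa chr11:73324588-73324887, minus strand: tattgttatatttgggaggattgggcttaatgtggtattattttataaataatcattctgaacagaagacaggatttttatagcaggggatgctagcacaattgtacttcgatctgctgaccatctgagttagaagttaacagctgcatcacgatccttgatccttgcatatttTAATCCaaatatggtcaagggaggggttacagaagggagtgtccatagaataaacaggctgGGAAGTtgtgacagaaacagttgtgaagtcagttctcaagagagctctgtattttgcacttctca
Gabarapl2 chr8:111940453-111940752, plus strand: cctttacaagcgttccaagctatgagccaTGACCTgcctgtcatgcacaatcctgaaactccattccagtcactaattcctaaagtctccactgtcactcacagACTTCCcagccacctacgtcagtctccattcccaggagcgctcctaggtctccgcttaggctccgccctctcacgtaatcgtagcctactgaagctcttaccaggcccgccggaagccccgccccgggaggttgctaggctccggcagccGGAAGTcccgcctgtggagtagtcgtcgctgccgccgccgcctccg
Fbp2 chr13:62858351-62858650, minus strand: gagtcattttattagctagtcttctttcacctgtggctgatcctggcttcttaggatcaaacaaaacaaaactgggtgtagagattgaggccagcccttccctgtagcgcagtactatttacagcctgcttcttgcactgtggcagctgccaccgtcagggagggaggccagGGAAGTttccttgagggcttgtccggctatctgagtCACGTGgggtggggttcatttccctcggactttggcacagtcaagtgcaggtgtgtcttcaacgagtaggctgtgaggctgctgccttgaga
Bhmt chr13:93637709-93638008, minus strand: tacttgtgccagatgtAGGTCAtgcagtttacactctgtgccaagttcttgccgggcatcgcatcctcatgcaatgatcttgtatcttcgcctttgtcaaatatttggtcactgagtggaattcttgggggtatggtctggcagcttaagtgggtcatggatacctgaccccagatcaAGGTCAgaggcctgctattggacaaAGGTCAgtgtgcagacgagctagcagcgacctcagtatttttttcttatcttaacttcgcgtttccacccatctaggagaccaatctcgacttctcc

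The windows shown were picked for their genes and, for Crxos, for a match, and all 6 hold a match, so their share of matches is no result. Windows of Ak4, Bhmt2 and Dmgdh were also searched and are not shown. None of these held the ETS core. Bhmt2 and Dmgdh held no match to any motif, and Ak4 held matches only in the last of its 4 windows. Of all 14 windows searched for 9 genes, 5 held the ETS core, the kind of site that ETS factors such as Spic bind. The ETS core is in 23.8% of all 32851 promoter windows of the same length. The 14 windows are not all separate, since the first 3 Ak4 windows overlap each other and the Bhmt2 window overlaps that of Dmgdh. Some bases are thus counted more than once. Gabarapl2 held 2 ETS cores and 1 nuclear receptor core site, Fbp2 an ETS core and an E-box, and Crxos an ETS core and a STAT site. Aspa held an ETS core and the only TAATCC of the 6. The Bhmt window held no ETS core but 3 nuclear receptor core sites, and 0.183% of all windows hold 3 or more. Single matches are common in the background: 16.3% of windows hold AGGTCA, 8.30% TTCNNNGAA, 7.15% CACGTG and 7.06% TAATCC. No marked match overlapped another, and a match is a run of letters and no measured binding site.

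The named genes were next read by the number of UMIs of the 4 genes per cell, as 0, 1, 2, 3 and 4 or more. Calcoco2 had 277, 493, 666, 837 and 1040 CPM in that order, and Gabarapl2 421, 625, 788, 974 and 1232 CPM. Dppa3 had 45.2, 65.0, 92.6, 118 and 164 CPM. Lefty1 had 155, 97.6, 76.9, 36.9 and 39.2 CPM, and Tcf15 106, 71.0, 50.6, 40.3 and 23.8 CPM. Pou5f1 stayed between 609 and 643 CPM over the 5 classes. Levels followed the count step by step in 9 of the 15 highest and 9 of the 15 lowest genes. Already the cells with 1 UMI, which the rule leaves out, lay beyond the cells with 0 in 15 of 15 highest and 15 of 15 lowest genes. Median depth moved with the classes too, at 5885, 6434, 7216, 7311.5 and 8026 UMIs per cell. Weighting the cells with 0 UMIs to the depths of the chosen cells left all 30 genes past 1.5-fold. The 30 genes were picked for their ratios in chosen cells and cells with 0 UMIs, which these readings use again. The step counts and the weighting are thus a description, and the part of depth was not tested.

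**Figure D4:**
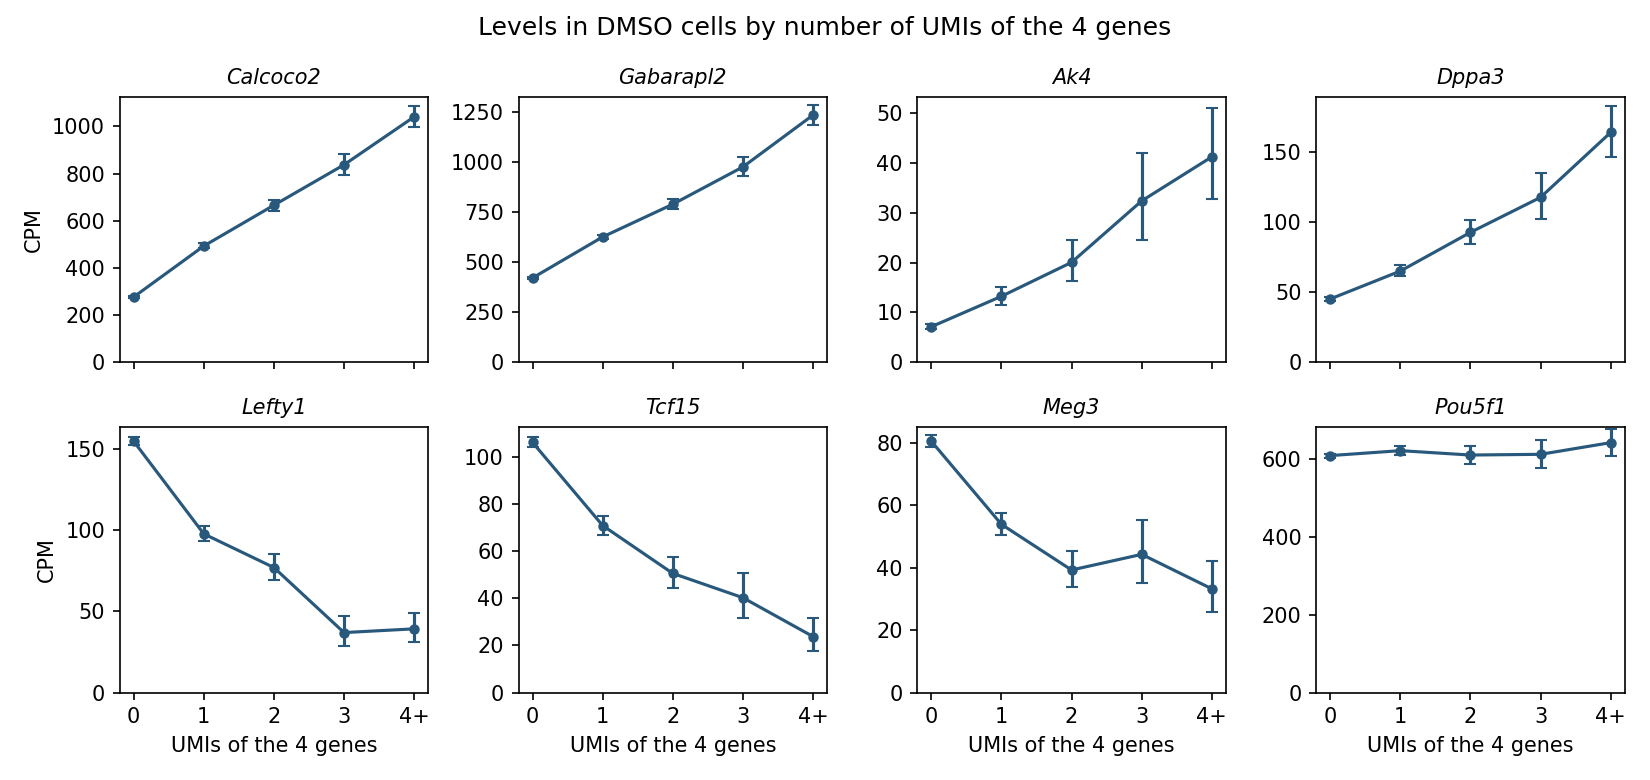
Level (CPM) of 8 named genes in DMSO cells with 0, 1, 2, 3 and 4 or more UMIs of the 4 genes, with 95% Poisson intervals. Calcoco2 reaches 1040 CPM and Gabarapl2 1232 CPM in the last class, Tcf15 is at 23.8 CPM there, and Pou5f1 stays level.

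The same genes were then read in cells with 1 or more UMIs of a single gene of the 4. These cells include the 424 chosen cells with 1 gene, in which the genes were picked, so the values in part restate that choice. In the 771 cells with Ly6a only, the 15 highest genes had a median ratio of 1.85 over cells with 0 UMIs, and all 15 were at least 1.5-fold higher. With Aspa only the median was 1.63, with Crxos only 1.501 and with Spic only 1.45, and 8, 8 and 6 of the 15 were at least 1.5-fold higher. The 15 lowest genes had median ratios of 0.576, 0.699, 0.738 and 0.717 in the same order, and 13, 6, 5 and 3 of them were at least 1.5-fold lower. Above 1 were Tagln with Aspa only, at 1.23 (0.956 to 1.55), and Vim with Crxos only, at 1.22 (1.12 to 1.33).

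Single cells were compared after thinning to 3900 UMIs each. The 15 highest genes summed to a median of 8 UMIs per chosen cell (quartiles 5 and 13) and 3 UMIs per cell with 0 UMIs of the rule (quartiles 1 and 5). The genes were picked in these same cells, so the sums are a description. A sum above 9, the 90th percentile of the cells with 0 UMIs, was found in 41.6% (38.5 to 44.8%) of the chosen cells and 8.18% of the others. Without Calcoco2 and Gabarapl2 the medians were 2 and 0 UMIs, and 28.2% of the chosen cells and 8.52% of the others lay above 3, the 90th percentile of the others. The 2 groups overlapped widely, so most chosen cells lay inside the range of the others. The 15 lowest genes summed to a median of 1 UMI in the chosen cells and 3 in the others.

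Kept DMSO cells were clustered without the 4 genes, which gave 14 clusters, and chosen cells were found in 13 of them. In cluster 9, led by Fbp2, Saa3 and Ak4, 193 of 634 cells met the rule, or 30.4% (26.9 to 34.2%). In cluster 12, led by Zscan4 and Eif1ad genes, 11 of 78 cells met it, or 14.1% (7.26 to 23.8%). In cluster 2, led by BC048679, Rhox9 and Rhox6, it was 286 of 2212 cells, or 12.9% (11.6 to 14.4%). These 3 clusters held 47.1% of the chosen cells and 16.4% of all kept cells. The leading genes of cluster 9 also included Khdc3, Calcoco2, Dppa3, Zc3hav1 and Gabarapl2, and those of cluster 2 Fthl17a and Pdlim4. Like Fbp2, Ak4, Rhox9 and Rhox6, these genes are among those with the highest ratios named above. Such genes thus mark whole clusters, in which most cells did not meet the rule. At the other end were cluster 8, led by Ebf1, Grb10 and Tagln, with 9 of 1276 cells, or 0.705%, and cluster 0, led by Krt17, Bmp4 and Fgf17, with 32 of 2572 cells, or 1.24%. The interval of the share in cluster 8 was 0.323 to 1.33%. Median depths were 6426.5 UMIs per cell in cluster 9 and 6448.5 in cluster 8, and the part of depth in the shares was not tested.

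**Figure D5:**
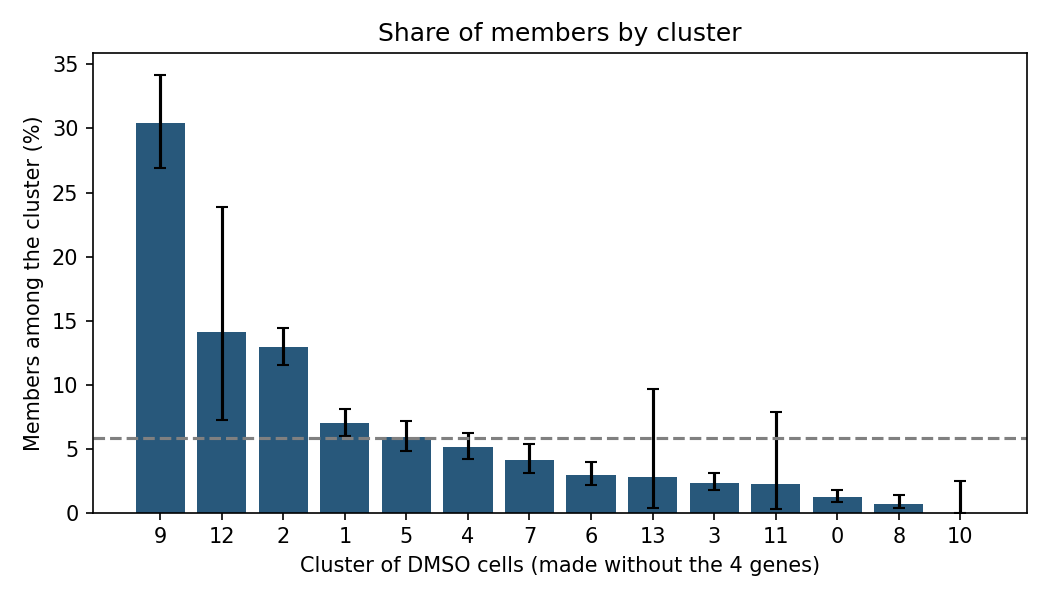
Share of chosen cells (members, %) in each of the 14 clusters of kept DMSO cells, made without the 4 genes, in falling order, with exact 95% binomial intervals; the dashed line is the share in all kept cells, 5.82%. Cluster 9 stands at 30.4%, and cluster 10, with 0 of 148 cells, has the lowest median depth.

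The chosen cells were not a single cluster: cluster 9 held 18.5% of them, and 1.98% of the cells with 0 UMIs. The contrast was also read inside the 7 clusters with at least 50 chosen cells. The median ratio of the 15 highest genes lay between 1.44 in cluster 2 and 2.004 in cluster 1, with 11 to 15 of the 15 genes above 1. The genes were picked for this ratio in the same cells pooled, so this is a description. At least 1.5-fold higher were 12 of the 15 in cluster 1 and 6 in cluster 2, which holds most chosen cells of any cluster. At least 1.5-fold lower were 1 of the 15 in cluster 3, 2 in cluster 4 and 1 in cluster 7. The median ratio of the 15 lowest genes lay between 0.502 and 0.842. Bhmt had 8.16 CPM in chosen cells and 0.513 CPM in cells with 0 UMIs outside clusters 9 and 12, a ratio of 15.9 (10.6 to 24.0). Inside cluster 9 it had 10.4 and 1.60 CPM, a ratio of 6.47 (1.85 to 34.7), from 16 and 3 UMIs.

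The dTAG13 library was not used to choose the named genes, although the same 4 genes choose its cells. It is no replicate, since its treatment differs. In it 438 of 7100 measured genes were at least 1.5-fold higher in the 316 chosen cells (6.17%) and 199 at least 1.5-fold lower (2.8%). Of 6409 genes measured in both libraries, 348 were higher in dTAG13 and 149 in DMSO, and 120 were higher in both, which is 34.5% of the dTAG13 genes and 80.5% of the DMSO genes. Lower genes numbered 132 in dTAG13 and 79 in DMSO, and 43 were lower in both, 32.6% and 54.4% of each. Of these genes, 0 that were past 1.5-fold in DMSO were past it in the opposite direction in dTAG13. All 15 highest DMSO genes were at least 1.5-fold higher in dTAG13, with ratios of 1.58 to 5.18, and 14 of the 15 lowest were lower, the exception being Spink1 at 0.782. Levels in dTAG13 followed the count of the 4 genes step by step in 12 of the 15 highest and 5 of the 15 lowest. Tagln there had 90.8 CPM at 0 UMIs, 39.2 at 1, 41.1 at 2, 61.1 at 3 and 105.5 (79.5 to 137) at 4 or more.

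Sizes differed between the libraries, and these differences were not tested. Calcoco2 had 866.5 CPM in chosen dTAG13 cells and 167.6 CPM in dTAG13 cells with 0 UMIs, a ratio of 5.17, against 2.85 in DMSO. Gabarapl2 had 1052 and 334 CPM, a ratio of 3.15, against 2.21 in DMSO. Lefty1 had a ratio of 0.239 in dTAG13 and 0.388 in DMSO. Fbp2 had a ratio of 1.58 in dTAG13 and 3.43 in DMSO. Of 18 measured naive genes 11 were higher in dTAG13 and 3 in DMSO, with median log2 ratios of 0.72 and 0.17. Nanog had a ratio of 2.02 in dTAG13 and 1.36 in DMSO, and Klf4 had 1.98 in dTAG13 and a value just under 1.5 in DMSO. Of 3 measured 2-cell-like genes in dTAG13, 2 were higher, with a median log2 ratio of 2.12, while 0 of that list reached 10 CPM in DMSO. Summed over the whole 2-cell-like list, chosen cells had 68.6 CPM and cells with 0 UMIs 37.8 CPM in dTAG13, against 6.73 and 15.3 CPM in DMSO, so the sums differed in opposite directions. The DMSO sum was lower in chosen cells, although cluster 12, led by Zscan4 and Eif1ad genes, held 1.06% of them and 0.338% of DMSO cells with 0 UMIs. That cluster had only 11 chosen cells and 49 with 0 UMIs, and the difference was not tested. Bhmt had 15 UMIs in chosen dTAG13 cells and 16 in dTAG13 cells with 0 UMIs, a ratio of 25.9 (11.9 to 55.9), while Bhmt2 with 1 UMI in chosen dTAG13 cells gave 1.97 (0.0467 to 13.0).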

How the data were processed

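The authors deposited 1 matrix of UMI counts per library, whole numbers with no normalization, which the file headers credit to Cell Ranger 8.0.1. Seurat 5.0.1, R 4.3.2 and the mm10 build are also listed, without a role, per the submitters' processing notes. No source used here names the annotation behind the counts. The deposited barcode and feature lists, used as they stand, name the cells and genes.

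From there, UMIs of features sharing a symbol were summed. Barcodes needed at least 500 genes and no more than 10% of UMIs from mitochondrial genes, which kept 17878 of 17958 in DMSO and 11588 of 11644 in dTAG13. Median depth was 7072.5 UMIs per kept cell in dTAG13 and 6014 in DMSO. Levels are pooled UMIs per 1000000, with exact Poisson intervals. Exact conditional binomial intervals go with ratios and exact Clopper-Pearson intervals with shares, all at 95% and for counting error only. A gene was counted as higher or lower at 1.5-fold, where either group reached 10 CPM.

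The genes named were, among those with at least 20 CPM and a UMI in at least 5% of cells of the higher group (predicted, ribosomal and mitochondrial genes left out), the 15 highest and 15 lowest DMSO ratios; up to 4 genes per list; and Pou5f1, Sox2, Nanog and Tex10. The members and the 37 gene lists were chosen with earlier results of these data known. The autophagy panel and the genes under 10 CPM were added after values were seen. Clusters came from scanpy 1.11.5 and leidenalg 0.10.2 (2000 variable genes, 30 components, 15 neighbours, resolution 1). The pooled ratio and its interval were tested on counts simulated from pooled proportions, without spread between cells. Thinning, clustering and the other steps were not tested in this way. Alternatives changed the rule, the filters, the comparison cells, the weighting, the scaling and the lowest level. Python 3.11.15, numpy 2.4.6, pandas 2.3.3 and scipy 1.17.1 were used. No doublet caller was run.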

Additional observations from a re-analysis of the deposited data

Results flagged for a closer look

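Among the named genes, 4 lay on opposite sides of 1 in the libraries, with both counting intervals off 1, and the difference between the libraries was not tested for any of them. Apoe, a lipid carrier, had a ratio of chosen cells over cells with 0 UMIs of 1.21 in dTAG13 and 0.847 in DMSO. Tubb3, a neuronal tubulin, had 1.37 in dTAG13 and 0.864 in DMSO. Hspb1, a small heat shock protein, had 1.16 in dTAG13 and 0.870 in DMSO. Cldn6, a tight junction protein, went the other way with 0.671 in dTAG13 and 1.33 in DMSO. All 4 ratios were within 1.5-fold of 1 in both libraries.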

How the results depend on the processing

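The 15 highest, the 15 lowest and the 10 genes under 10 CPM were read under the 13 alternatives to which a single gene's ratio applies. All stayed past 1.5-fold in the same direction. Calcoco2 ranged from 2.54 to 3.41 and Bhmt from 10.0 to 26.8. The genes were picked for extreme ratios in these same cells, so this is a description and no support. The counts of higher and lower genes were 340 and 198 with at least 3 UMIs of the 4 genes, 94 and 41 with at least 20 CPM, and 805 and 757 with at least 1 CPM, where more genes were tested. The share of chosen cells was 2.77% after thinning, 2.43% with at least 3 UMIs and 5.16% without cells above the 95th percentile of UMIs. With at least 3 UMIs, each gene read in cells chosen by the other 3 had ratios of 9.73 for Ly6a, 5.44 for Crxos, 6.12 for Aspa and 3.87 for Spic. List medians changed sign for neural ectoderm (log2 -0.21 with at least 20 CPM, 1 gene, and -0.68 with at least 1 CPM, 4 genes), definitive endoderm (0.0618 with at least 1 CPM, 2 genes) and BMP targets (0.14 with at least 1 CPM, 9 genes), where other genes enter the list. No paired analysis was possible because each treatment has 1 library, and for the same reason no library could be left out.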
